A study of Rattus norvegicus with 2 samples.

Results

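Postsynaptic scaffold genes were followed in the sympathetic neurons of the stellate ganglion. This ganglion holds neurons that innervate the heart and neurons with other targets, and the values used here do not separate them. The 10 genes, chosen by symbol, encode the PSD-95 family (Dlg1, Dlg2, Dlg3 and Dlg4), the SHANK proteins (Shank1, Shank2 and Shank3) and the Homer proteins (Homer1, Homer2 and Homer3). All 10 had a line among the 25395 genes with a unique name. Dissociated ganglia were sequenced cell by cell with 10x Genomics 3′ chemistry in 1 library for each strain, normotensive Wistar and the SHR (spontaneously hypertensive rat) before the onset of hypertension. The rats of both strains were males of 5 to 6 weeks. Wistar is an outbred stock and the SHR an inbred strain, so the strains differ across the genome and not at a single locus. How many animals went into each library was not given in the sources used here.

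At a synapse, scaffold proteins hold receptors and their signalling enzymes beneath the postsynaptic membrane. Proteins of the PSD-95 family bind the tails of receptors and channels through PDZ domains. SHANK proteins form a deeper layer that is tied to the PSD-95 family by SAPAP linkers (the Dlgap genes), and Homer proteins join SHANK to metabotropic glutamate receptors and to calcium release channels. Most of this is known from glutamate synapses of the brain. The synapses on sympathetic neurons are cholinergic and use nicotinic receptors, and there the protein of Dlg2, PSD-93, is known as a scaffold. Dlg4, which encodes PSD-95, was one of the markers by which the study recognised its sympathetic neurons, so that its presence in this cluster is no finding.

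For each library the data give 1 value per gene, the mean over the sympathetic neurons, and levels are stated here as mean counts per 10000 counts of a cell. With 1 library per strain there was no spread between replicates, no error and no test, and each difference below compares 2 libraries. Every count stands for 1 captured 3′ end, so that no correction for length was made. How completely the 3′ ends of each gene are captured and assigned was not checked, so levels compared between genes are levels of counts. The isoforms of a gene, such as the short and long forms of Homer1, are added together where they are counted to the same gene. A mean over the cluster does not tell fewer neurons with a transcript from less of it per neuron. The study described 2 populations of sympathetic neurons, 1 of which also expressed neuropeptide Y, and the values used here do not separate them. The smallest mean above 0 was 0.000140 per 10000 in Wistar, shared by 16 genes, and 0.000391 in SHR, shared by 17 genes. Such a shared lowest value is what 1 count adds to the mean when it falls in the deepest neuron, and a mean divided by it gives about the largest number of counts that can lie behind that mean. The value was 2.80 times larger in SHR, so the ceiling on the counts behind the same mean is lower in that library. The counts themselves are not known.

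The cluster carried the transcripts of sympathetic neurons in both libraries. All 14 marker genes of these neurons passed a minimum average of 0.1 per 10000 over both libraries, with a summed level of 203.5 per 10000 in Wistar and 224.9 in SHR. Of these, 8 were lower and 6 higher in SHR, with a median ratio of SHR to Wistar of 0.976. Of all genes past this minimum, 65.6% were lower, with a median ratio of 0.863. Th, Dbh, Slc6a2 and Maoa were among the markers by which the study recognised these neurons, so that their presence is no finding. The ratios of the abundant neuronal genes Prph, Stmn2, Uchl1 and Snap25 were between 1.17 and 1.36, and those of Dbh, Ddc, Slc18a2 and Maoa, which encode enzymes and a transporter for catecholamines, were between 0.488 and 0.679. The 12 glia markers summed to 21.3 per 10000 in Wistar and 12.5 in SHR. Pmp22 (11.3 and 8.58 per 10000) and Apoe (6.24 and 2.23) made up most of these sums. Of the glia markers, the 8 past the minimum were all lower in SHR, against 65.6% of all genes. Ncmap was listed at 0 in both libraries. Fibroblast markers summed to 1.84 and 0.353 per 10000, immune markers to 0.391 and 0.0740, smooth muscle markers to 0.120 and 0.0714, endothelial markers to 0.0788 and 0.0774 and erythrocyte markers to 0.0669 and 0.0499, in Wistar and SHR respectively. The part of transcripts from other cells in the scaffold levels was not tested.

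Dlg4 and Shank2 were the most abundant scaffold transcripts, and they differed between the libraries in opposite directions. The mean of Dlg4 was 0.738 per 10000 in Wistar neurons and 0.970 in SHR neurons, where it was 1.32 times higher, a difference of 0.18 in the log2 of 1 plus the mean. The mean of Shank2 was 0.728 per 10000 in Wistar neurons and 0.412 in SHR neurons, where it was 1.77-fold lower, a log2 difference of -0.29. In Wistar these transcripts stood almost level, with 1.01 Dlg4 counts for each count of Shank2, whereas in SHR there were 2.36. Dlg4 moved up from rank 2405 to rank 1667 among all genes, and Shank2 moved down from rank 2441 to rank 3425.

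**Figure D1:**
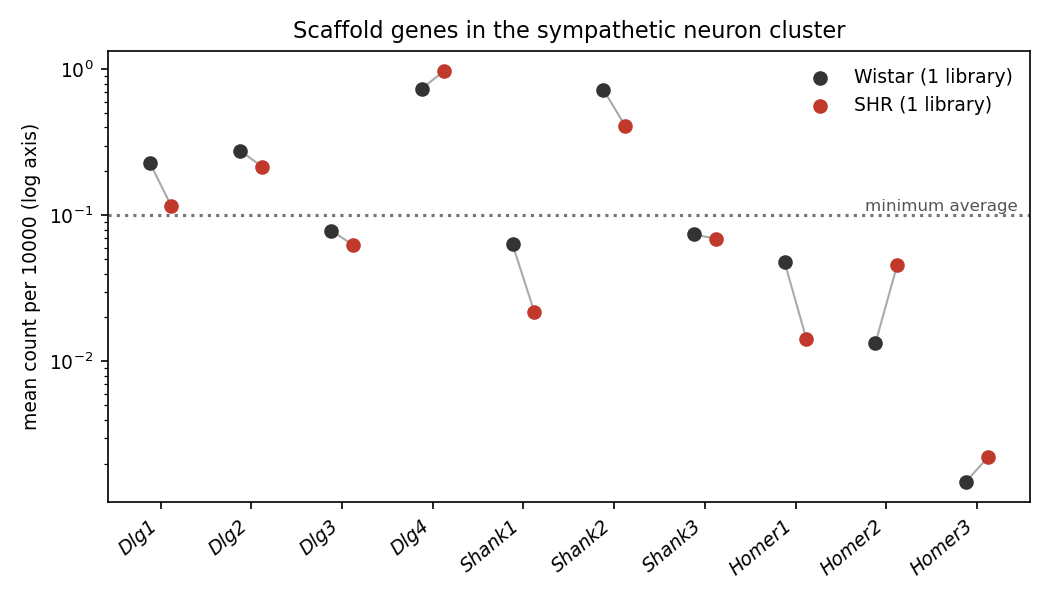
Mean count per 10000 (log axis) of each scaffold gene in the sympathetic neuron cluster of the Wistar library (black) and the SHR library (red), with 1 point per library and no error because each strain has 1 library. The dotted line marks the minimum average of 0.1 per 10000. Dlg4 and Shank2 stand highest, Homer3 lowest, and the points of Homer1 and Homer2 change places between the libraries.

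Within the PSD-95 family the other genes had lower means in SHR. So did 74.6% of all genes averaging 0.1 to 0.3 per 10000 and 74.5% of those averaging 0.03 to 0.1. Dlg1, which encodes SAP97, a scaffold also found outside neurons, averaged 0.230 per 10000 in Wistar neurons and 0.115 in SHR neurons, 1.99-fold lower. Dlg2, the PSD-93 gene, averaged 0.277 per 10000 in Wistar and 0.215 in SHR, 1.29-fold lower. Dlg3, which encodes SAP102, averaged 0.0787 per 10000 in Wistar and 0.0629 in SHR, 1.25-fold lower. Among all genes, Dlg1 moved down from rank 5757 to rank 6821. Dlg2 moved up from rank 5189 to rank 5156, and Dlg3 moved up from rank 8494 to rank 8206. Dlg4 exceeded Dlg2, the next most abundant of the family, by 2.66 times in Wistar and 4.51 times in SHR, and it exceeded Dlg1 by 3.21 and 8.42 times. In sum the 4 genes came to 1.32 per 10000 in Wistar and 1.36 in SHR, so the family as a whole was 1.03 times higher while its makeup shifted towards Dlg4. Dlg4 contributed 55.8% of the family's counts in Wistar and 71.2% in SHR. Over the same libraries the share of Dlg1 was 17.4% and 8.45%, and that of Dlg2 was 20.9% and 15.8%.

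The SHANK genes were all lower in SHR. At their levels most genes were lower, 67.9% of those averaging 0.3 to 1 per 10000 and 74.5% of those averaging 0.03 to 0.1. Shank2 made up most of the SHANK transcripts in both libraries, with 84.1% in Wistar and 81.9% in SHR. Shank1 averaged 0.0634 per 10000 in Wistar and 0.0219 in SHR, 2.90-fold lower. Shank3 had means of 0.0740 and 0.0693 per 10000, which are 1.07-fold apart, and its rank moved up from 8621 to 8006. At the most, 453.4 counts in Wistar and 55.9 in SHR lie behind the means of Shank1. The difference of Shank3 turned to a log2 value of 0.0083 when the SHR library was rescaled so that the median ratio of all genes past the minimum became 1. The family summed to 0.865 per 10000 in Wistar and 0.503 in SHR.

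Homer transcripts were scarce, and their sum was nearly the same in both libraries, at 0.0624 per 10000 in Wistar and 0.0621 in SHR. The gene that supplied them was not the same. Homer1 averaged 0.0476 per 10000 in Wistar and 0.0142 in SHR, 3.35-fold lower, whereas Homer2 had 0.0133 in Wistar and 0.0456 in SHR, 3.43 times higher. Homer1 made up 76.3% of the Homer counts in Wistar and 22.9% in SHR, and Homer2 made up 21.3% and 73.5%. No more than about 340.5 counts in Wistar and 36.4 in SHR can lie behind the means of Homer1, and no more than 95.1 and 116.8 behind those of Homer2. Means do not show whether such counts came from many neurons or from a few. The Homer3 values were 0.00151 per 10000 in Wistar and 0.00220 in SHR, which is at most about 10.8 and 5.63 counts, too few to set one library above the other.

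**Figure D2:**
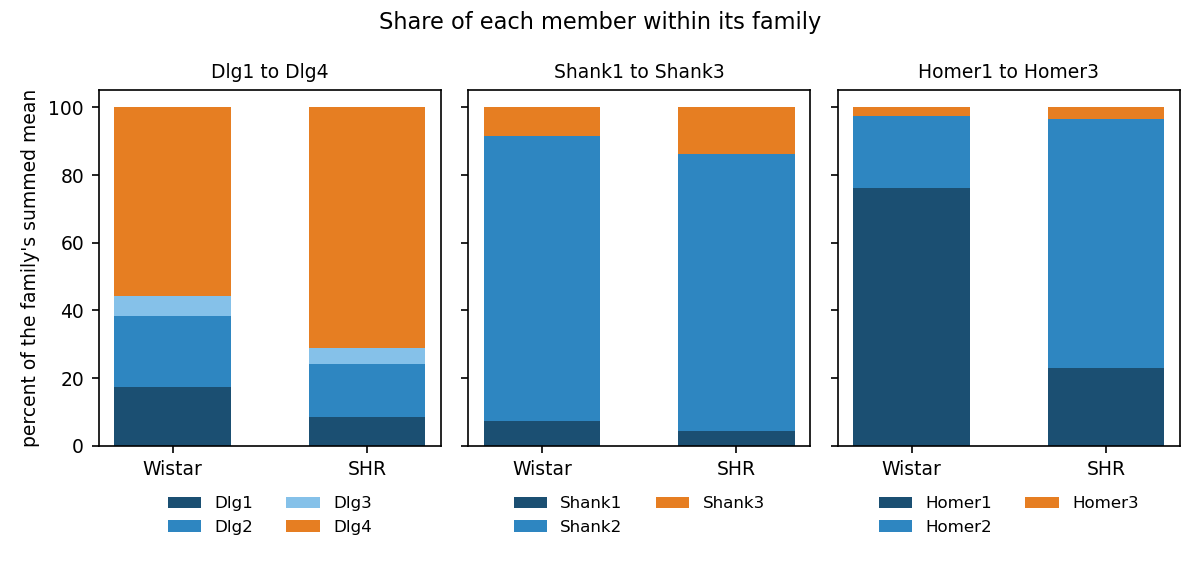
Share of each gene in the summed mean count of its family (percent), for the PSD-95 family, the SHANK family and the Homer family, with 1 bar for the Wistar library and 1 for the SHR library. Dlg4 widens from 55.8% to 71.2% of its family, and Shank2 fills most of its own in both bars. Homer1 and Homer2 exchange the larger share, on small means whose counts are not known.

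The differences of single scaffold genes were read against those of all genes. Of the 7621 genes that passed the minimum, 65.6% were lower in SHR, the median ratio of SHR to Wistar was 0.863, 26.5% were lower by at least 1.5-fold and 5.22% were higher by at least 1.5-fold. The minimum was passed by 4 of the 10 scaffold genes, Dlg1, Dlg2, Dlg4 and Shank2, of which 3 were lower in SHR and 2 (Dlg1 and Shank2) were lower by at least 1.5-fold. None was higher by that much. Over all 10 genes, 7 were lower and 3 higher in SHR. The counts of lower genes are near what the background gives. The 2 of 4 lower by at least 1.5-fold are a larger share than 26.5%. With so few genes past the minimum, these counts do not set the scaffold genes apart.

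The ratio also moved with the level and with the span of a gene. Among the 2978 genes with an average between 0.3 and 1 per 10000, 32.1% were higher in SHR and the interquartile range of the ratios ran from 0.670 to 1.07. Dlg4, at a ratio of 1.32, was above this range, and 9.30% of the other genes of the band were as high or higher. Shank2, at 0.566, was below it, and 14.6% of the other genes of the band were as low or lower. Among genes between 0.1 and 0.3 per 10000 the interquartile range ran from 0.571 to 1.00, with Dlg1 at 0.502 below it and Dlg2 at 0.776 within it. Of the genes between 0.03 and 0.1, 11.0% had a ratio as low as that of Homer1 and 15.0% as low as that of Shank1. For Dlg3 and Shank3, in the same band, these shares were 58.9% and 70.1%. Of the genes between 0.01 and 0.03, 2.69% had a ratio as high as that of Homer2. Homer1 and Homer2 have nearly the same average and fall on either side of the limit of 0.03. The share given for Homer1 depends on that limit. Between 0.01 and 0.03 the interquartile range ran from 0.304 to 1.06, and the ratio of Homer1, 0.299, is only just below it.

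**Figure D3:**
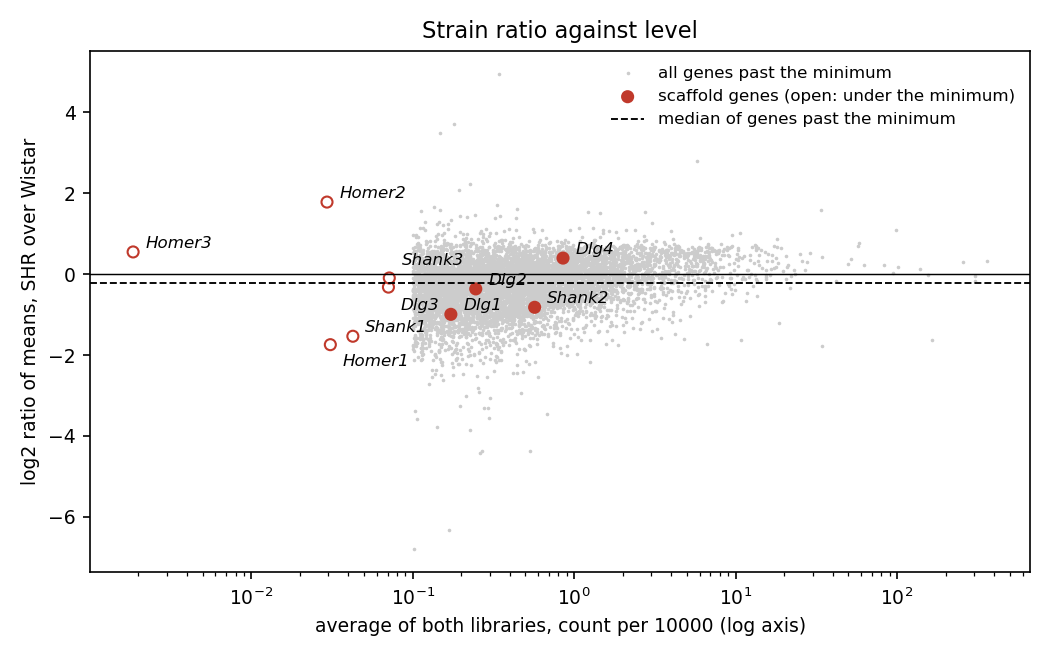
Log2 ratio of the means, SHR over Wistar, against the average of both libraries in counts per 10000 (log axis), for all genes past the minimum with a mean above 0 in both libraries (grey) and the scaffold genes (red, open where they are under the minimum). The dashed line is the median ratio of the genes past the minimum. Dlg4 lies in the upper part of the grey cloud and Shank2 and Dlg1 in the lower part, all inside it.

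Genes were also ordered by their span in the GRCr8 rat assembly, which is not the assembly behind the values and served for this order alone. In 10 groups of equal size, Dlg1, Dlg2 and Shank2 belong to the group with the longest spans, of which 85.6% were lower in SHR with a median ratio of 0.683. Against that median, Dlg1 (0.502) and Shank2 (0.566) had lower ratios and Dlg2 (0.776) a higher one. Dlg4 belongs to group 6, counted from the shortest, of which 72.4% were lower with a median ratio of 0.850. The part of gene span in the differences of the scaffold genes was not tested.

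The transcripts whose levels came closest to those of Dlg4 in both libraries were Cetn2, a centrosome gene, with 0.746 per 10000 in Wistar and 0.976 in SHR, Gpx1, an antioxidant enzyme gene, with 0.740 and 0.954, and Tmem223 with 0.734 and 0.995. The likeness is the distance between the deposited natural logs over the 2 libraries, 0.0052 for Cetn2, 0.0085 for Gpx1 and 0.013 for Tmem223, and with 2 libraries it describes a level and a ratio and no more.

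Other genes of the postsynaptic apparatus were followed in 6 lists, which hold linkers, enzymes and ligands that bind these scaffolds, other scaffold families, and genes of the nicotinic and inhibitory synapse. Of the 86 listed genes with a line, 45 passed the minimum, 33 of them lower and 12 higher in SHR, which is 73.3% lower against 65.6% of all genes. Their median ratio was 0.715 against 0.863 for all genes. Lower by at least 1.5-fold were 18 of the 45 (40%, against 26.5% of all genes), and 0 were higher by that much (5.22% of all genes). The lists were chosen with earlier results of these data known, so these shares describe the lists and test nothing. Many of the listed genes have long spans. In the 3 groups with the longest spans, 81.5% to 85.6% of all genes were lower, with median ratios of 0.683 to 0.751. Those groups held 3 of 3 SAPAP linkers past the minimum and 8 of 12 other MAGUK and PDZ scaffolds. They held 8 of 10 Homer and SHANK ligands, 4 of 12 PSD-95 binding genes, 3 of 7 nicotinic genes and the 1 inhibitory scaffold. The part of span was not tested.

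The SAPAP linkers, which join the PSD-95 family to SHANK, were led by Dlgap4. It averaged 0.778 per 10000 in Wistar and 0.551 in SHR, a ratio of 0.709. Dlgap1 had means of 0.271 and 0.126 per 10000, a ratio of 0.463, whereas Dlgap3 had 0.243 and 0.254, a ratio of 1.05. Dlgap2, the fourth of these genes, was under the minimum.

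Of the PSD-95 binding enzymes and anchors, 12 of 21 genes passed the minimum, 8 lower and 4 higher in SHR. That is 66.7% lower, near the 65.6% of all genes. Cript, whose protein binds the third PDZ domain of PSD-95, had the highest level, with 1.35 per 10000 in Wistar and 1.99 in SHR, a ratio of 1.47. Of the palmitoyltransferase genes in the list, Zdhhc2 had 0.967 and 1.04 per 10000 and Zdhhc8 had 0.261 and 0.228. Of the genes for enzymes that remove palmitate from PSD-95, Abhd17a had 0.501 and 0.543, Abhd17b had 0.439 and 0.566, and Abhd17c, under the minimum, had 0.0726 and 0.0681. Zdhhc8 and Abhd17c were named after their values were seen. Lower in SHR were Cnksr2, a scaffold of Ras signalling, with 1.01 and 0.621 per 10000, and Begain, which encodes a binder of the guanylate kinase domain, with 0.574 and 0.132, a ratio of 0.231. Mdm2, a ubiquitin ligase gene, had 0.361 and 0.256, and Iqsec2, an exchange factor gene for Arf proteins, had 0.308 and 0.293.

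The Homer and SHANK ligands had 10 of 20 genes past the minimum, 9 lower and 1 higher in SHR, with a median ratio of 0.583, where 65.6% of all genes were lower with a median of 0.863. Of these 10 genes, 8 belong to the 3 groups with the longest spans, in which 81.5% to 85.6% of genes were lower, and the part of span was not tested. Sptan1, the alpha spectrin gene, had 6.95 per 10000 in Wistar and 4.97 in SHR. Dbn1, which encodes the actin binding protein drebrin, had 2.13 and 1.01, a ratio of 0.473. The calcium release channel gene Ryr2 had 0.475 and 0.230 per 10000, and the cation channel gene Trpc1 had 0.510 and 0.307. Of the dynamin genes, Dnm3 had 0.919 and 0.615 per 10000 and Dnm2 had 0.530 and 0.298, and Abi1, a regulator of actin, had 0.948 and 0.831.

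Other MAGUK and PDZ scaffolds were split, with 7 of 12 lower and 5 higher in SHR and a median ratio of 0.934. That is 58.3% lower, against 65.6% of all genes with a median ratio of 0.863. Sdcbp, the syntenin gene, was the most abundant of them, with 2.88 per 10000 in Wistar and 3.42 in SHR. Next came Apba2, an adaptor gene of the Mint family, with 1.84 and 1.24. Tjp1, the gene of the junction scaffold ZO-1, had 0.566 and 0.263 per 10000, a ratio of 0.464, and Pick1 had 0.398 and 0.234, whereas Mpp6 had 0.449 and 0.517 and Mpp5 had 0.406 and 0.436. Erbin had 0.674 and 0.589, and Gopc had 0.458 and 0.411.

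At the nicotinic synapse transcripts of the main receptor subunit were far more abundant than those of any scaffold member. Chrna3, the alpha3 nicotinic subunit gene, averaged 11.4 per 10000 in Wistar and 12.3 in SHR, a ratio of 1.08, and Chrnb4, the beta4 subunit gene, had 0.338 and 0.271. Tmem35a, which encodes a chaperone of nicotinic receptors, had 6.48 and 5.95 per 10000. Apc, whose protein takes part in placing nicotinic receptors in autonomic neurons, had 1.48 and 0.892, a ratio of 0.603. Of the 7 genes past the minimum in this list, 6 were lower in SHR (85.7%, against 65.6% of all genes) and Chrna3 was higher. With 7 genes this share does not set the list apart. Gphn, the gephyrin gene and the only listed scaffold of inhibitory synapses with a line, had 0.258 per 10000 in Wistar and 0.132 in SHR.

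**Figure D4:**
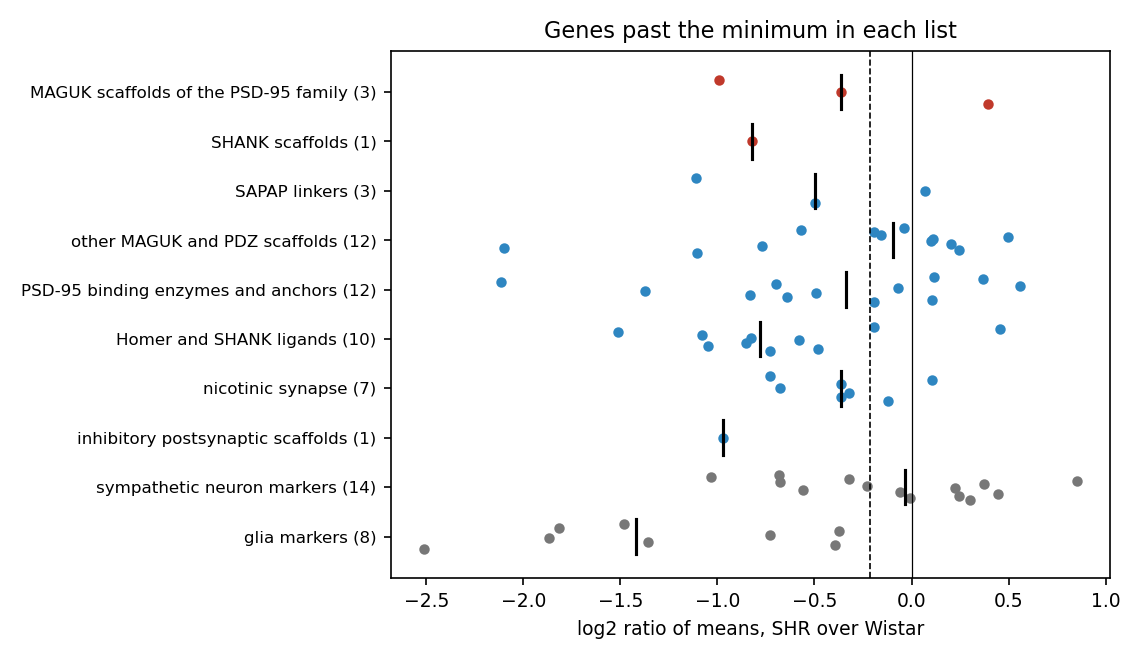
Log2 ratio of the means, SHR over Wistar, for every gene past the minimum in each list, with the number of genes in brackets. Each point is 1 gene, black bars are list medians, the dashed line is the median of all genes past the minimum, and no error is drawn because each strain has 1 library. Dlg4 is the PSD-95 family point to the right of 0, the Homer and SHANK ligands lie mostly to the left, and the glia markers lie left of 0 throughout.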

How the data were processed

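Per the labels, cells were sequenced with 10x Genomics Single cell 3′ chemistry. The submitters' processing notes name Cell Ranger 3.0.2, Seurat 3, DESeq2 and the build Rnor_6.0, and the authors selected the sympathetic neurons by clustering. Cell filters, doublet treatment, the number of neurons and the counts per neuron are not given in the sources used here. The deposited values are natural logs of 1 plus the mean count per 10000, which sum to 10000 per library after conversion. The authors' own comparison (fold changes, p-values and shares of cells with a gene) was not used.

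Values were converted and compared with Python 3.11.15, NumPy 2.4.6 and pandas 2.3.3. Differences are SHR minus Wistar in log2 of the mean plus 1, and ratios use the means without a pseudocount. Counts of genes use an average of at least 0.1 per 10000, and 1.5-fold was the size rule. The calculation of ratios was tested on simulated data. The 4 lines that share a gene name with another were dropped. Spans in GRCr8, matched by symbol or synonym, covered 95.6% of the genes past the minimum. Named were all members, the listed genes with an average of at least 0.3 per 10000 (or the highest of a list with fewer than 3 such genes), and the 3 genes nearest to Dlg4. Members and lists were chosen with earlier results of these data known. The division by the smallest mean, the level bands under 0.1 and the comparison of family shares were added after the values were seen. Protein sequences were not analysed here. Alternatives were other pseudocounts, scalings and minimums.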

Additional observations from a re-analysis of the deposited data

How the results depend on the processing

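No paired analysis was possible because there was a single library of each strain, and no replicate could be left out. A pseudocount cannot change a direction, and each scaling multiplies every ratio by the same factor, so neither says anything about the stability of a single gene. Setting the median ratio of all genes to 1 multiplies every ratio by 1.16, which takes Shank3 to a log2 difference of 0.0083. The median log2 difference of the scaffold genes past the minimum, -0.11, became -0.44 and -0.012 with pseudocounts of 0.1 and 10 and -0.034 with no minimum. With no minimum, 7 scaffold genes were lower and 3 higher. With a minimum of 1 per 10000, 0 were lower and 0 higher, since none reaches it. Genes of the 6 other postsynaptic lists lower and higher numbered 56 and 25 with no minimum and 5 and 4 at a minimum of 1 per 10000, and 27 and 20 with the median ratio set to 1, against 33 and 12. The share of all genes lower by at least 1.5-fold was 17.0%, 0.066%, 17.3%, 41.8% and 11.6% with a pseudocount of 0.1 or 10 added to both means, the median ratio set to 1, no minimum and a minimum of 1. The share higher by as much was 3.06%, 0.066%, 13.2%, 12.4% and 10.3%. Leaving mitochondrial and ribosomal protein genes or other cells' markers out of the total multiplied every ratio by 1.03 and 0.999. These shifts follow from the construction of each setting. The means of Homer1, Homer2, Homer3 and Shank1 are small and the counts behind them are not known, which limits what can be read from their ratios.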
